A study of Mus musculus with 4 samples.

Results

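The heat-shock chaperones described here are 10 genes, Hspa1a, Hspa1b, Hsph1, Dnajb1, Dnaja4, Hsp90aa1, Hspa8, Dnaja1, Hspd1 and Hspe1, of the 27998 genes listed in the single-cell matrices. They were chosen by name, with earlier results of these data known. The first 6 are treated as inducible members and the other 4, from Hspa8 on, as constitutive members. These classes were set by name, and whether stress raises a member in these cells was not tested. They were measured in UTCαβ, unconventional αβ T cells without CD4 and CD8, sorted from mouse sarcomas, in 2 libraries of Csf3r+/+ and 2 of Csf3r-/- mice. Both genotypes were males on the C57BL/6J background and received 1 injection of the carcinogen 3-methylcholanthrene, and no age was given in the sources used here. Csf3r encodes the receptor for G-CSF, and the deletion was present in every cell of the Csf3r-/- mice. Tumors were minced and digested with collagenase before CD45+ TCRβ+ cells lacking CD11b, TCRγδ, CD4 and CD8 were sorted. A barcode was kept as a T cell if it had a UMI of Cd3e, 200 genes or more, no more than 20000 UMIs and a mitochondrial share of 10% or less, which left 21342 of 32525 barcodes. A UMI (unique molecular identifier) marks 1 captured RNA molecule.

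Chaperones of the HSP70 family hold unfolded stretches of protein and release them in cycles of ATP hydrolysis. J-domain proteins (Dnaja and Dnajb) deliver clients to HSP70, HSP110 (Hsph1) exchanges its nucleotide, and HSP90 takes over clients such as kinases and receptors. In mitochondria, HSP60 (Hspd1) and HSP10 (Hspe1) form a folding chamber. Under heat or other proteotoxic stress the transcription factor HSF1 binds inverted repeats of nGAAn in promoters and raises the inducible members. Hspa8, the constitutive HSC70, is made in most cells at all times.

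All 10 gene identifiers of the matrices were found in the GRCm38 annotation. Hspa1a (chr17:34969190-34972156, minus strand) and Hspa1b (chr17:34956436-34959238, minus strand) are neighboring copies of inducible HSP70 whose starts lie 12918 bp apart. Their upstream sequences are shown because the levels of the pair, given below, differed. In the RefSeq table (GRCm38.p6) the 250 bases before each start lie at chr17:34972157-34972406 and chr17:34959239-34959488, overlap no annotated exon, and were identical at 247 positions. The 3 differing bases lie 207, 204 and 2 bases before the start. Capitals mark the word GAANNTTC, a pair of inverted GAA units, which begins 104 bases before both starts.

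Hspa1a: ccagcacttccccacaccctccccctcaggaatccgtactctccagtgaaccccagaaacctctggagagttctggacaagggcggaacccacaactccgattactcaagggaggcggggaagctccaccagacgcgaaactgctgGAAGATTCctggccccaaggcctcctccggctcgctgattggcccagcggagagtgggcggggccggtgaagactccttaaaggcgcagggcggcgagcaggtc
Hspa1b: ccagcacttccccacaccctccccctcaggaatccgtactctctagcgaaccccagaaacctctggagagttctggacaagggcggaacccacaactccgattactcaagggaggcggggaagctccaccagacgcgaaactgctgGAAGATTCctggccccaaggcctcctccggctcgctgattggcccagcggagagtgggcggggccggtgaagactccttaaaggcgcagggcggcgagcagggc

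The words GAANNTTC and TTCNNGAA were searched on both strands in the 250 bases before each start. A promoter was matched for 8 members, all but Hspa8 and Hsp90aa1, and 7 of the 8 held such a word. Such a word was present before at least 1 start of 14.5% of all 27025 genes in the table. Counted by start site, it was in 8 of 14 promoters of members and in 12.8% of all 32851 promoters. The longer words GAANNTTCNNGAA and TTCNNGAANNTTC, which contain the shorter ones, were found in 2 members, Hspd1 and Hspe1, and in 0.514% of all genes. Hspd1 and Hspe1, both treated here as constitutive, lie head to head, so their capitals below are 1 shared element read on opposite strands. The windows of 30 bases lie at chr5:149636351-149636380 (minus strand) for Hsph1, chr9:54699496-54699525 (plus) for Dnaja4, chr4:40722333-40722362 (plus) for Dnaja1, chr1:55088051-55088080 (minus) for Hspd1 and chr1:55088055-55088084 (plus) for Hspe1. They all overlap annotated exons. These windows are shown so that members can be compared by their element, with the matched words in capitals.

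Hsph1: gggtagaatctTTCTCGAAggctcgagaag
Dnaja4: gcctcctggcgGAACCTTCcgccggcgccg
Dnaja1: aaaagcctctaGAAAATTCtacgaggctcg
Hspd1: ggccTTCCGGAAGGTTCTAGAAcggaccgt
Hspe1: tccgTTCTAGAACCTTCCGGAAggccccgc

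The windows of Dnajb1 held neither word. Because the reads come from the 3′ end, the last 500 bases of each transcript were compared with all other genes in words of 31 bases. Hspa1a shared none of its words with another gene and Hspa1b shared 2.15%, none with Hspa1a. In Hspa8 85.3% and in Hspe1 68.5% of words also occurred in other genes, among them Gm15459 and Hspe1-ps3, so the counts of these 2 members are uncertain. The other members shared at most 1.06%.

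The libraries held 2843 and 6458 T cells in Csf3r+/+ and 5215 and 6826 in Csf3r-/-, with 9827411 to 23753033 UMIs. Cells of Csf3r+/+ were deeper, at a median of 3055 and 3026 UMIs against 2239 and 1983. Cd3d, a T cell receptor subunit, stood at 1033 to 1180 CPM (UMIs per 1000000 UMIs of the library), whereas Cd4 and Cd8a were at most 4.62. Cd8b1, the β chain of CD8, was at 13.4 and 6.06 in Csf3r+/+ and 29.7 and 25.7 in Csf3r-/-, with a UMI in up to 6.71% of cells. Csf3r itself, a neutrophil gene, was at 0.0616 to 0.141 in all 4 libraries and could not check the genotype labels. The macrophage gene Apoe differed widely, at 10.8 and 187 CPM in Csf3r+/+ and 42.2 and 884 in Csf3r-/-. The erythroid gene Hbb-bs was found in Csf3r+/+ library 1 at 178. Between 20 and 56 barcodes were shared by any 2 libraries, at most 1.02% of the smaller one. The methods give 2 mice per genotype as biological replicates, but the barcodes do not tie a library to a numbered sample.

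Of the inducible members, Hspa1a, Dnajb1 and Dnaja4 stood at lower levels in both Csf3r-/- libraries than in either Csf3r+/+ library, although no gene passed the test across genes given below. Levels below are in CPM, each UMI being 1 tag at the 3′ end, and a drop in a sum over cells cannot tell fewer expressing cells from less RNA per cell. Hspa1a was at 1392 and 1504 in Csf3r+/+ and at 442 and 708 in Csf3r-/-, a mean of 1448 ± 79.0 against 575 ± 188 (SD, n = 2), or 2.52-fold higher in Csf3r+/+. Dnajb1, a J-domain partner of HSP70, was at 527 and 948 against 174 and 256, a 3.43-fold difference of the means. Both Csf3r-/- libraries stood below both Csf3r+/+ libraries for each gene. Dnaja4, a further J-domain protein, was at 10.8 and 31.9 against 8.26 and 10.5. Its Csf3r+/+ libraries differed 2.95-fold from each other, so the gap to Csf3r-/- was narrow.

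The other inducible members overlapped between genotypes. Hspa1b was at 56.7 and 63.4 in Csf3r+/+ and at 47.9 and 74.2 in Csf3r-/-, giving means of 60.0 and 61.1. Hsph1, the HSP110 exchange factor, was at 34.6 and 91.3 against 32.1 and 49.2. Hsp90aa1, the inducible HSP90, was at 790 and 1093 against 509 and 863. In each of the 3 genes the Csf3r-/- range reached into the Csf3r+/+ range.

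Among constitutive members, Hspa8 was at 2583 and 3484 in Csf3r+/+ and at 2079 and 2407 in Csf3r-/-, 1.35-fold apart in the means. Hspd1, mitochondrial HSP60, was at 187 and 223 against 141 and 140, and its partner Hspe1 was at 485 and 635 against 392 and 375. Both mitochondrial chaperones were 1.46-fold higher in Csf3r+/+. Dnaja1, a J-domain protein, was at 422 and 755 against 442 and 665 and overlapped. In all, both Csf3r-/- libraries lay below both Csf3r+/+ libraries for 6 of 10 members (3 of 6 inducible, 3 of 4 constitutive), against 17.4% of the 11491 genes tested.

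**Figure D1:**
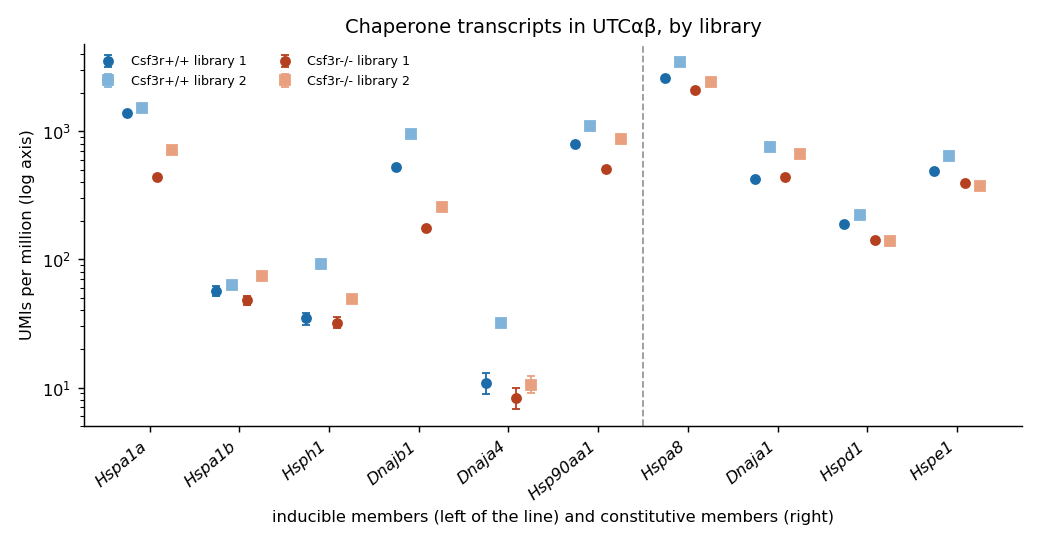
CPM (log axis) of each member in the 4 libraries, inducible members left of the dashed line and constitutive members right. Points are libraries, bars are 95% Poisson intervals that cover counting error only; Hspa1a and Dnajb1 show both Csf3r-/- points below both Csf3r+/+ points, while those of Hspa1b lie on either side.

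Across genes, no difference between genotypes passed the test. edgeR's quasi-likelihood test on summed counts called 0 of 11491 genes at a Benjamini-Hochberg adjusted p under 0.05 (0%), and 0 of 10 members, with 1663 genes and 4 members at an unadjusted p under 0.05. The 4 were Hspa1a, Dnajb1, Hspd1 and Hspe1. On the log2 scale of Csf3r-/- over Csf3r+/+, Hspa1a was at -1.43 (SE 0.32, edgeR adjusted p = 0.164) and Dnajb1 at -1.90 (SE 0.43, adjusted p = 0.169). The median of the 10 members was -0.66, beside 0.00467 over all genes. All 10 estimates were negative, but that of Hspa1b turned to 0.02 when library sums were used without TMM factors, which also moved the median of all genes by 0.10.

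The genotype call depended on processing choices, among them the tool, the filter on low counts and 1 library. DESeq2 called 626 genes, Hspa1a (adjusted p = 0.00305) and Dnajb1 (0.000988) among them. Without Csf3r+/+ library 1, edgeR called 847 genes and 3 members, namely Dnajb1, Dnaja4 and Hspe1 (adjusted p = 0.0384, 0.0345 and 0.0464). That fit has 1 Csf3r+/+ library, assumed to vary like the Csf3r-/- pair from which all of the spread comes, so its calls say little of the genotypes. Without a filter 303 genes and in the type 1 gate alone 151 genes were called, with 0 members in both.

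Inducible members together took a smaller part of the chaperone UMIs in Csf3r-/-. Their sum was 2811 and 3731 CPM in Csf3r+/+ and 1214 and 1960 in Csf3r-/-, while the constitutive sum was 3678 and 5096 against 3054 and 3587. The ratio of inducible to constitutive UMIs was 0.764 and 0.732 in Csf3r+/+ and 0.398 and 0.547 in Csf3r-/-, a log2 difference of -0.68. A two-sided exact permutation test gave p = 0.333, the smallest that 2 against 2 libraries allow. Within cells of the type 3 gate, defined below, the difference was -0.70, and within the type 1 gate it was -0.69. Without Hspa1a and Hspa1b it was -0.51. The member median of the genotype difference was smaller in size inside the gates, which took unlike shares of the cells of each genotype. On the log2 scale it was -0.66 in all cells, -0.46 in the type 3 gate and -0.29 in the type 1 gate. Single members need not follow the median. Inside the type 3 gate Hspa1a was at 1032 and 1894 CPM in Csf3r+/+ against 393 and 615 in Csf3r-/-. Inside the type 1 gate Hspa8 overlapped, at 3000 and 3522 in Csf3r+/+ against 2616 and 3264 in Csf3r-/-. Hspa1a and Dnajb1 did not overlap in either gate.

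The ratio of Hspa1a to Hspa1b differed between genotypes. This ratio was chosen after the levels had been seen and is a description. For each UMI of Hspa1b, Csf3r+/+ cells held 24.6 and 23.7 UMIs of Hspa1a and Csf3r-/- cells 9.23 and 9.54. In all kept cells the 2 libraries of a genotype lay close together and the genotypes did not overlap. Hspa1b is sparse, and the part of free RNA in the ratio was not tested. With all deposited barcodes the ratios were 25.2 and 24.6 against 9.45 and 9.83. Inside the type 3 gate they were 16.9 and 22.4 against 7.65 and 7.95, and outside it 31.3 and 24.0 against 15.1 and 16.6. The ratio thus depended on the cells summed, in both Csf3r-/- libraries and in Csf3r+/+ library 1. In Csf3r+/+ library 2 it differed little between inside and outside this gate. Inside the type 1 gate the ratios were 29.98 and 24.1 against 13.4 and 16.1. Barcodes past the macrophage gate, 24 in Csf3r+/+ library 2 and 62 in Csf3r-/- library 2, gave 12.3 and 13.7, and their part in the ratio was not tested.

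**Figure D2:**
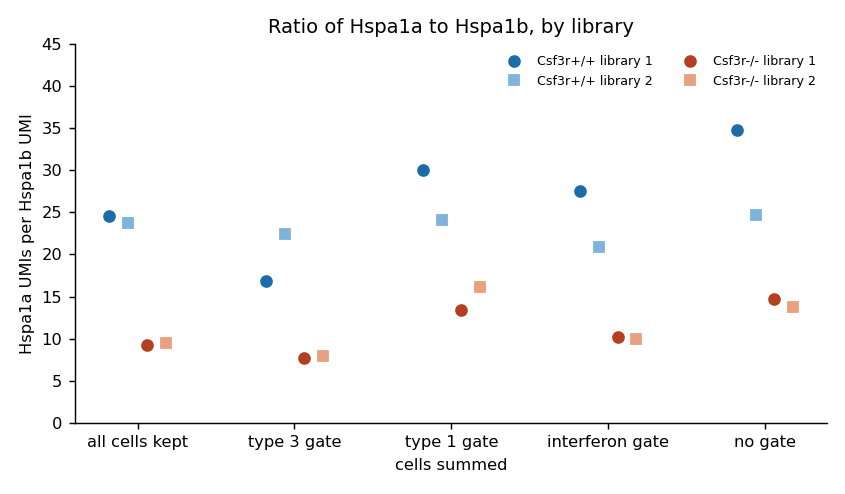
UMIs of Hspa1a per UMI of Hspa1b (linear axis) for each library, in all T cells and inside the gates named on the x axis. In all cells the Csf3r+/+ libraries sit at 24.6 and 23.7 and the Csf3r-/- libraries at 9.23 and 9.54, and the order of the genotypes is kept in the type 3 and type 1 gates.

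For values per cell, cells were thinned to 1500 UMIs, which left 19624 cells and dropped 1718 shallower ones. Hspa1a was detected in 54.6 and 54.8% of Csf3r+/+ cells and in 29.1 and 29.98% of Csf3r-/- cells (62.4, 65.1, 36.2 and 34.6% without thinning). Dnajb1 was detected in 38.5 and 59.1% against 19.4 and 21.8% (53.1, 76.5, 29.2 and 29.4% without thinning). Hspa8 was found in 92.5 to 98.5% of cells in every library. Hspa1b was found in 8.27 and 8.67% against 6.27 and 9.13%. As a gauge of free RNA, Apoe had a UMI in 1.22 and 4.30% of Csf3r+/+ and 1.73 and 14.5% of Csf3r-/- cells at the same depth. Shares of Hspa1b, Hsph1 (4.21% in Csf3r+/+ library 1) and Dnaja4 (1.28 to 4.29%) were within or near that range and are not read further.

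Hspa1a was spread unevenly over cells. The tenth of cells richest in it held 44.4 and 50.3% of its UMIs in Csf3r+/+ and 64.8 and 74.2% in Csf3r-/-, against 23.4 to 28.4% for Hspa8. Such shares also rise as a gene gets sparser, so they do not compare genes or genotypes of unlike level. Hspd1 held 52.3 to 63.4% at a variance over mean of only 1.05 to 1.24. For Hspa1a the variance over mean was 4.78 and 7.56 in Csf3r+/+ and 3.66 and 10.2 in Csf3r-/-. It ranked between 10 and 23 among 3315 to 3626 genes, whose median was 1.02 in each library. The 6 inducible members together had a median of 3 and 4 UMIs per 1500 in Csf3r+/+ cells and of 1 and 1 in Csf3r-/- cells. No UMI of them was found in 16.5 and 9.31% of Csf3r+/+ and in 32.7 and 27.8% of Csf3r-/- cells. The upper end differed within genotypes, since the 99th percentile was 20.2 and 37 in Csf3r+/+ and 10.3 and 30.5 in Csf3r-/-.

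**Figure D3:**
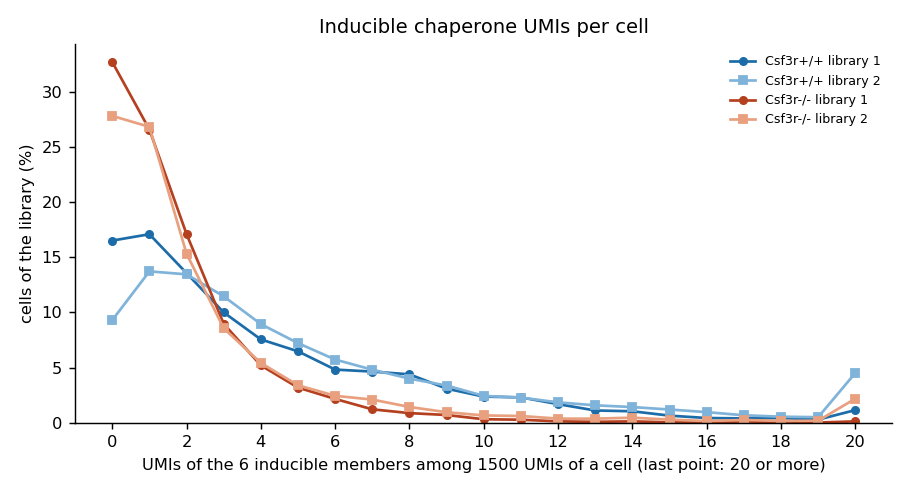
Share of a library's cells (%) by the UMIs of the 6 inducible members among 1500 UMIs of the cell, the last point collecting 20 or more, one line per library. The Csf3r-/- lines start at 32.7 and 27.8% of cells with 0 UMIs, above the 16.5 and 9.31% of the Csf3r+/+ lines.

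Cells with at least 10 inducible UMIs made up 11.9 and 18.0% of Csf3r+/+ and 1.33 and 5.74% of Csf3r-/- cells. Across cells, by Pearson r of log(1 + UMIs), Hspa1a went most with Dnajb1 (r = 0.35, 0.40, 0.22 and 0.35 in the order Csf3r+/+ 1 and 2, Csf3r-/- 1 and 2) and with Hsp90aa1 (0.25, 0.33, 0.16 and 0.40). Hspa1a and Hspa1b gave 0.10, 0.24, 0.13 and 0.31. The median over the 15 inducible pairs was 0.03 to 0.17, close to the 0.03 to 0.13 of mixed pairs. These correlations share library and depth, the genes are sparse, and no p is given. The inducible sum had an r between -0.06 and 0.09 with the log UMI count of a cell and between -0.10 and 0.00 with its mitochondrial share.

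Cell states were read by 5 marker gates, a cell passing with a UMI of at least 3 genes of the list. The type 3 list holds 10 genes such as Il23r and Il17a, and the type 1 list 14 genes such as Klra1, Gzmb and Ifng. Stimulated cells were gated by Nr4a and Egr genes, cycling cells by genes such as Mki67, and interferon cells by genes such as Ifit1. None of the lists holds a chaperone. The type 3 gate took 49.4 and 11.1% of Csf3r+/+ and 76.2 and 81.1% of Csf3r-/- cells, and the type 1 gate 40.7 and 70.1% against 16.4 and 16.5%. Of the thinned cells, 22.0% passed more than 1 gate and 10.8% none, so the gates are not independent of each other. Dnajb1 outside the type 3 gate was near its level inside the type 1 gate in each library. It was at 725 and 774, and 948 and 1004 CPM in Csf3r+/+, and at 238 and 248, and 491 and 502 in Csf3r-/-. The type 3 and type 1 contrasts may thus compare much the same cells and are not 2 separate results. Counts inside and outside a gate were compared by edgeR with the library as a block, and log2 values below are inside over outside.

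Cells past the type 3 gate carried less of most chaperones. Of the 10 members, 7 fell and none rose, against 16.1% of 9955 genes called lower, and the member median was -0.58 beside -0.01 over all genes. Dnajb1 was at -1.01 (SE 0.23, adjusted p = 0.0146), Hspd1 at -0.65 (0.00134) and Hspe1 at -0.61 (0.00144). Hspa8, Hsp90aa1, Hsph1 and Hspa1a also fell, by 0.59, 0.58, 0.52 and 0.58 on the log2 scale, Hspa1a at an adjusted p of 0.0478. Hspa1a was at 1032 inside and 1667 outside the gate in Csf3r+/+ library 1, at 393 and 582 in Csf3r-/- library 1 and at 615 and 1081 in Csf3r-/- library 2. In Csf3r+/+ library 2 it went the other way, at 1894 inside and 1467 outside, and there Dnajb1 was level, at 951 and 948. Hspd1, Hspe1, Hspa8, Hsp90aa1 and Hsph1 were lower inside in 4 of 4 libraries.

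Hspa1b and Dnaja4 were higher inside the type 3 gate in 4 of 4 libraries but did not pass, at 0.18 (edgeR adjusted p = 0.129) and 0.25. Without TMM factors, which raised the median of all genes by 0.15, Hspa1b rose by 0.33 (adjusted p = 0.0147) and Hspa1a no longer passed (0.108). Leaving out Csf3r-/- library 2 left 4 members lower.

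Cells past the type 1 gate carried more of 5 members, against 6.71% of 10210 genes called higher. The member median was 0.44 beside 0.00303 over all genes. Dnajb1 rose by 1.01 (SE 0.19, edgeR adjusted p = 0.0178), Hspa1a by 0.57 (0.0388), Hspa8 by 0.49 (0.0290), Hsp90aa1 by 0.46 (0.0197) and Hsph1 by 0.44 (0.0379). Dnajb1 was at 774 inside and 327 outside in Csf3r+/+ library 1 and at 502 and 200 in Csf3r-/- library 2, the widest gaps, and at 1004 against 812 and 248 against 159 in the other libraries. Hspd1 (0.44, adjusted p = 0.0514) and Hspe1 (0.43, 0.0560) missed the threshold, and Hspa1b stood at 0.01. The count was fragile. It was 0 without Csf3r+/+ library 1, where 471 of 10670 genes were called, and 7 without Csf3r+/+ library 2, where 2447 of 9960 were. It was also 0 without Csf3r-/- library 1 or 2, where only 4 of 10274 and 61 of 10219 genes were called. The member median was 0.41 without Csf3r+/+ library 1, and 0.41 and 0.36 without Csf3r-/- library 1 and 2. The count was 3 without TMM factors (median of all genes moved by -0.13) and 3 without cells past more than 1 gate.

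Cells past the stimulated gate numbered 35 and 383 in Csf3r+/+ and 73 and 403 in Csf3r-/-. In them 5 members rose, against 1.89% of 10056 genes called higher. The member median was 0.37 beside -0.03 over all genes. Hsph1 rose by 0.67 (edgeR adjusted p = 0.000255), Dnajb1 by 0.63 (5.24e-06), Hsp90aa1 by 0.53 (1.21e-06), Dnaja1 by 0.39 (0.00347) and Hspa8 by 0.36 (7.73e-06). Hspa1a was at 0.27 and did not pass (0.202), being higher inside in 3 libraries but at 263 inside and 446 outside in Csf3r-/- library 1. None of the 5 calls remained without cells past more than 1 gate, but few cells were left for that fit, so it says little. In Csf3r+/+ 32 of 35 and 317 of 383 gated cells also passed another gate, and in Csf3r-/- 67 of 73 and 378 of 403. Sums of under 20 cells were left out, so only part of the libraries entered. With all gated cells, 3 members passed when library 2 of either genotype was left out.

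Cells past the cycling gate, 78 to 150 per library, split the members. Hsp90aa1 (0.44, edgeR adjusted p = 0.0154), Hspd1 (0.44, 0.00812) and Hspa8 (0.30, 0.0233) rose, 3 of 10 against 14.4% of 9978 genes called higher. Hspa1a (-0.71, 0.000130), Hspa1b (-0.83, 0.00119), Dnajb1 (-0.89, 0.00150) and Dnaja1 (-0.41, 0.00857) fell, 4 of 10 against 13.8% called lower. The member median was -0.29 beside -0.09 over all genes. Hspa1a was at 872 inside and 1450 outside in Csf3r+/+ library 1, at 770 and 1524 in library 2, and at 279 and 451 and 639 and 725 in Csf3r-/- libraries 1 and 2. Its CPM was therefore lower inside in all 4 libraries. CPM is a share of UMIs, and in each library the cycling cells held more UMIs per cell. In Csf3r+/+ library 1, 150 cells inside held 1018931 UMIs, 888 of them Hspa1a. The 2630 cells outside held 8724619, 12651 of them Hspa1a. The lower share is thus not fewer Hspa1a UMIs per cell. The ratio of inducible to constitutive UMIs was lower inside the gate in 4 of 4 libraries, by 0.37 ± 0.19 (SD, n = 4) on the log2 scale. Without Csf3r-/- library 1 the 4 falls passed and none of the 3 rises did. With a gate of at least 4 genes or without cells past more than 1 gate, 1 rise passed. In the latter fit the Csf3r-/- libraries were left out, as 97 of 115 and 87 of 101 of their cells passed another gate. Their sums thus held under 20 cells. Hspd1 and Hspa8 were higher inside in 4 of 4 libraries, and Hsp90aa1 in 3, being at 1038 inside and 1095 outside in Csf3r+/+ library 2.

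The interferon gate called 1 member, Dnajb1 at 0.28 (edgeR adjusted p = 0.0280), against 5.01% of 10225 genes called higher. The call was fragile and held in 4 of 11 alternatives. It was lost without either Csf3r+/+ library, without Csf3r-/- library 2, without TMM factors, without cells past more than 1 gate, without the library block and with DESeq2. Hspd1 went the other way, at -0.23, and did not pass (edgeR adjusted p = 0.0690). It too passed in 4 of 11 alternatives.

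**Figure D4:**
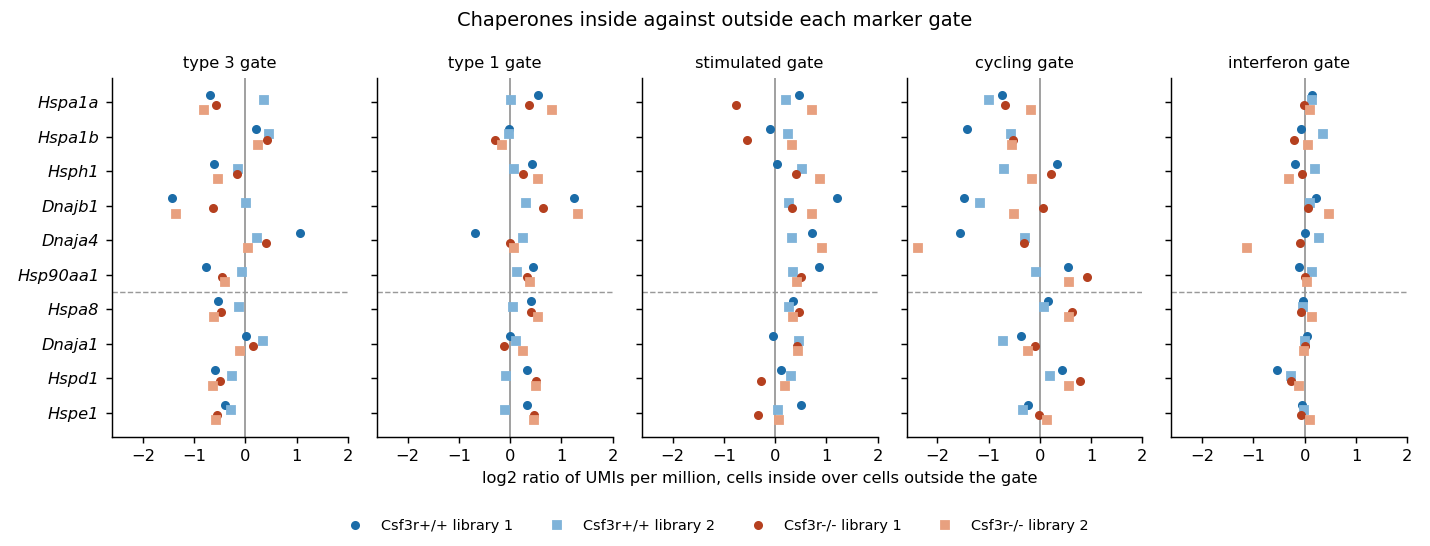
Log2 ratio of CPM inside over outside each of 5 marker gates for every member, one point per library, inducible members above the dashed line and constitutive members below. Hspa1a lies left of 0 in 4 of 4 libraries in the cycling panel, while in the type 3 panel Csf3r+/+ library 2 lies right of 0.

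Whether the difference inside a gate differed between genotypes was tested by an interaction term. In the cycling gate 2 members passed, Dnajb1 and Hspa8, against 0.441% of 9978 genes. Dnajb1 was at 202 inside and 564 outside in Csf3r+/+ library 1 and at 430 and 963 in library 2. In Csf3r-/- it was at 183 inside and 176 outside in library 1 and at 186 and 264 in library 2. The log2 difference inside over outside was thus 1.18 higher in Csf3r-/- (SE 0.18, edgeR adjusted p = 0.00218). Inside the gate Csf3r+/+ library 1 stood near both Csf3r-/- libraries, and Csf3r+/+ library 2 stood above them.

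Hspa8 was at 2841 inside and 2554 outside in Csf3r+/+ library 1 and at 3663 and 3481 in library 2, against 3167 and 2061, and 3570 and 2404, in Csf3r-/-. Its log2 difference was 0.57 higher in Csf3r-/- (SE 0.09, edgeR adjusted p = 0.00268), but it did not pass with DESeq2 (0.123), with a gate of at least 2 genes (0.162) or without TMM factors (0.0600). In the other 4 gates 0 members passed with edgeR or DESeq2, and 0 were at an unadjusted p under 0.05 with edgeR. The fit without Csf3r+/+ library 1 leaves 1 library of that genotype, so only its estimates are given. The member median of the interaction was then 0.67 in the cycling gate, -0.29 in the type 3 gate and 0.46 in the type 1 gate. With all libraries these medians were 0.50, -0.20 and 0.24.

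**Figure D5:**
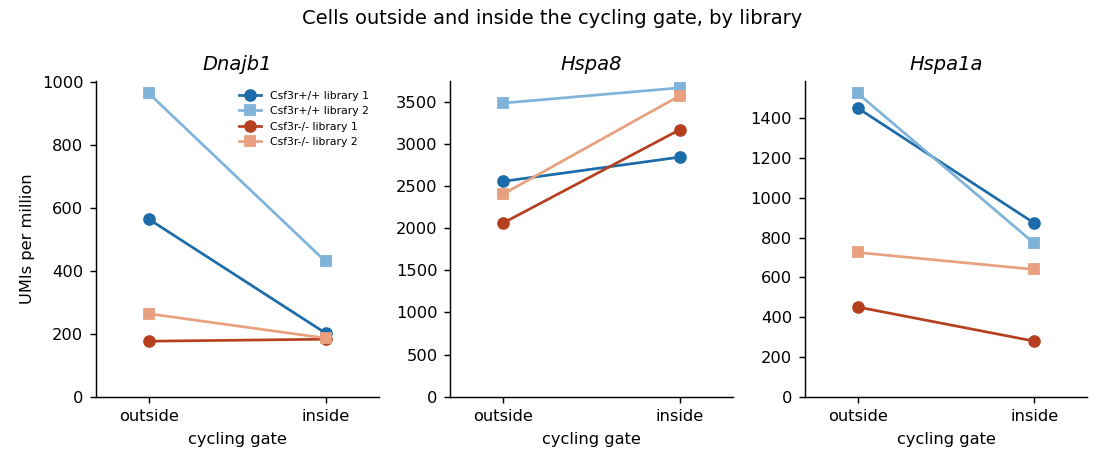
CPM of Dnajb1, Hspa8 and Hspa1a outside and inside the cycling gate, with a line for each library. Dnajb1 drops from 564 to 202 and from 963 to 430 in the Csf3r+/+ libraries, and goes from 176 to 183 and from 264 to 186 in the Csf3r-/- libraries.

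Other chaperones were read from lists that hold no member. Of 44 tested cytosolic chaperones and cofactors, 15 fell and 3 rose in the type 3 gate, where 16.1% of all genes were called lower and 13.3% higher. Hspb1, a small heat-shock protein, fell by 1.58 on the log2 scale, Bag3, an HSP70 cofactor, by 1.01 and Dnajb4 by 0.87, while Fkbp5, an HSP90 co-chaperone, rose by 0.93. In the type 1 gate 4 rose, among them Dnajb4 (0.89) and Hsp90ab1 (0.44), and 2 fell, Fkbp5 (-0.88) and Sugt1 (-0.32). There 6.71% of all genes were called higher and 6.35% lower. In the cycling gate 12 rose, led by Hspa14 (0.93), Dnajc2 (0.59) and Tcp1 (0.58), a subunit of the cytosolic chaperonin, and 6 fell. There 14.4% of all genes were called higher and 13.8% lower, so the falls were near that share. In the stimulated gate 5 rose, Ppp1r15a by 0.58, and in the interferon gate Ppp1r15a alone rose, by 0.28. Of all genes, 1.89% were called higher in the stimulated gate and 5.01% in the interferon gate.

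Endoplasmic reticulum chaperones and stress genes were mostly higher in the type 3 gate, where of 17 tested 9 rose, led by Pdia4 (0.91), a disulfide isomerase, Manf (0.68) and Sdf2l1 (0.60). The 2 that fell, Atf4 (-0.82) and Ddit3 (-0.65), are transcription factors of the stress response and not chaperones. Of all genes, 13.3% were called higher and 16.1% lower in that gate. In the type 1 gate Atf4 and Ddit3 rose (0.72 and 0.65) and 6 genes fell, Pdia4 by 0.78, against 6.71% of all genes called higher and 6.35% lower. In the cycling gate 2 rose and 2 fell, against 14.4% of all genes called higher and 13.8% lower. In the stimulated gate 2 rose, against 1.89%. In the interferon gate 1 rose and 2 fell, where 5.01% of all genes were called higher and 0.851% lower. Of 6 mitochondrial chaperones and proteases, Lonp1 rose in the cycling gate (0.66, against 14.4% of all genes), the only call of that list in any gate. Between genotypes the list medians were -0.20, 0.41 and -0.15 for the cytosolic, endoplasmic reticulum and mitochondrial lists, with no gene past the test.

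Of 16 immediate early and stress genes tested in the cycling gate, 12 fell, against 13.8% of all genes, Junb at -1.13, Rhob at -1.13 and Egr1 at -1.07. In the stimulated gate 10 of 16 rose (1.89% of all genes), Atf3 by 1.05, and in the type 1 gate 2 of 17 rose (6.71% of all genes), Socs3 by 1.39. In the type 3 gate 2 rose and 4 fell, Mt1 (-2.097) and Socs3 (-1.60) furthest, and in the interferon gate 3 rose. Of all genes, 13.3% rose and 16.1% fell in the type 3 gate, and 5.01% rose in the interferon gate. The genotype median of the immediate early and stress genes was -0.34.

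The genes most like the inducible sum over cells, by the lowest r of the 4 libraries among 2686 genes, were Jun (0.24) and Fos (0.23). Hsp90ab1, the constitutive HSP90, followed at 0.20, then the ubiquitin gene Ubb (0.15), and Klf6 (0.15), Dusp1 (0.13), Phlda1 (0.11), Ppp1r15a (0.10) and Btg2 (0.10). The median r of all genes compared was between -0.01 and 0.00. These cells share library and depth, and no p is given.

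Cells with 10 or more inducible UMIs lay in the type 3 gate at 27.6, 11.8, 56.5 and 71.4%, where all cells stood at 49.4, 11.1, 76.2 and 81.1%, in the library order used above. In the type 1 gate they lay at 57.0, 72.9, 22.6 and 25.9%, where all cells stood at 40.7, 70.1, 16.4 and 16.5%, and Csf3r+/+ library 2 differed little in either gate.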

How the data were processed

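UTCαβ of 2 Csf3r+/+ and 2 Csf3r-/- mice were sequenced with the 10x Single Cell 3′ v2 kit. Raw UMI counts per gene and barcode were deposited by the authors as 1 aggregated matrix per genotype, made with Cell Ranger on mm10; the submitters' processing notes also name bcl2fastq, R 3.4.4 and Seurat 2.3.4. The number after each barcode separated the libraries. Counts were summed per library over the kept cells, and inside and outside each gate, with sums of under 20 cells left out. Doublets were not called beyond the limit of 20000 UMIs. Sums were fitted over all genes by edgeR 4.0.16 (R 4.3.3, TMM, filterByExpr, quasi-likelihood test, Benjamini-Hochberg, threshold 0.05). Log2 fold changes come from that fit. Their standard errors (SE) were worked back from its F statistic, as the absolute log2 fold change over the square root of F. Gates used cells thinned to 1500 UMIs (seed 42) and the library as a block. Alternatives were DESeq2 1.42.0, no filter, no TMM factors, other cell sets, gates of 2 or 4 genes, and leaving out each library. Interaction alternatives, gates without TMM and the ratio of Hspa1a to Hspa1b were added after the data were seen. The scripts were tested on simulated data. Per-cell values used Python 3.11.15, numpy 2.4.6, pandas 2.3.3 and scipy 1.17.1.

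All members were named, with the 3 genes of largest change in each direction per wider list and the 10 genes most like the inducible sum, of which 1 is not reported here. The members and lists were chosen with earlier results of these data known. Intervals cover counting error only. The deviations of same-numbered libraries correlated at r = 0.294 over 11491 genes, but with 2 pairs they are taken to share only a number.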

Additional observations from a re-analysis of the deposited data

Results flagged for a closer look

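The difference between genotypes in the effect of the cycling gate was tested by an interaction term in edgeR with the library as a block, and 2 members passed. Dnajb1 gave 1.18 on the log2 scale (SE 0.18, adjusted p = 0.00218), being lower inside the gate in both Csf3r+/+ libraries and in 1 of 2 Csf3r-/- libraries. The value lay between 0.84 and 1.47 over its 9 alternatives and passed in all 9, with adjusted p up to 0.0354. Hspa8 gave 0.57 (SE 0.09, adjusted p = 0.00268), between 0.44 and 0.66 over 9 alternatives, of which 6 passed. The gate held 78 to 150 cells per library, and passed cells were 5.40 and 1.23% in Csf3r+/+ and 2.46 and 1.73% in Csf3r-/-. The part of cell number, depth and free RNA in these 2 values was not tested.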

How the results depend on the processing

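The alternatives gave 705 values of single members and of the ratio of Hspa1a to Hspa1b. Of these, 567 kept direction and side of the threshold, 83 lost the threshold, 28 gained it and 27 changed sign. The few values of the ratio could not cross the threshold, as an exact permutation test of so few libraries gives at least p = 0.333. Between genotypes, DESeq2 called 2 members and 626 genes, the replicate block 1 and 300, no filter 303 genes and the type 1 gate alone 151 genes. Leaving out 1 library gave 0 to 3 members and 0 to 847 genes. The log2 ratio of inducible to constitutive UMIs stayed negative in all its alternatives. Without the library block, 0 members passed in each gate. In the type 1 and stimulated gates 0 of 10210 and 0 of 10056 genes passed at all. In the type 3, cycling and interferon gates 692, 942 and 134 genes passed. Without 1 library, 4 to 7 passed in the type 3 gate, 0 to 7 in the type 1 gate, 3 to 6 in the stimulated gate, 4 to 7 in the cycling gate and 0 to 2 in the interferon gate. In the type 1 gate only 4 and 61 genes were called in all without Csf3r-/- library 1 and 2. Without cells past more than 1 gate the counts were 3 for type 1, 0 for stimulated and 0 for interferon. The stimulated count then rested on few cells and only part of the libraries. Without TMM factors the count was 3 for type 1. The interferon gate gave 0 with DESeq2 and 2 each without filter and with gates of 2 or 4 genes. Without filter and with a gate of 2 genes, 1 of the 2 was a fall. The cycling interaction gave 1 with DESeq2, with a gate of 2 genes and without TMM factors, 4 without filter, and 2 to 5 without 1 library. The type 3 and type 1 interactions gave 0 to 2 without 1 library. It could not be fitted for cycling cells past only 1 gate.

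Signs changed only for values that had not passed, except Dnajb1 in the stimulated gate, at -0.088 without cells past more than 1 gate. Without TMM factors these were Hspa1b between genotypes (0.024) and in type 1 (-0.12), Dnaja1 in type 3 (0.10), Dnaja4 in type 1 (-0.039), and Hsph1 (-0.0052), Hspa8 (-0.00332) and Hspe1 (-0.017) in interferon. Without cells past more than 1 gate they were Dnaja4 in type 1 (-0.088), Hspa1b in stimulated (-0.47), and Hspa1b (-0.33), Hsph1 (-0.071) and Dnaja1 (-0.20) in interferon. With gates of 2 and 4 genes Hspa1b in type 1 was at -0.030 and -0.035. Without 1 library, the range between genotypes was -0.48 to 0.24 for Hspa1b, -1.34 to 0.22 for Hsph1 and -0.62 to 0.38 for Dnaja1. It was -0.13 to 0.031 for Dnaja1 in type 3, -0.024 to 0.064 for Hspa1b and -0.049 to 0.26 for Dnaja4 in type 1, and -0.38 to 0.11 for Hsph1 in cycling. In interferon it was -0.013 to 0.24 for Hspa1b, -0.075 to 0.11 for Hsph1 and -0.12 to 0.21 for Dnaja4. The cause was not tested. The replicate block between genotypes changed the call of Dnajb1 (adjusted p = 0.0280) and of no other member.

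Each group held 2 libraries, which limits all tests. Sparse members (Hspa1b, Hsph1, Dnaja4) and the smallest gates rest on few UMIs. Counts of Hspa8 and Hspe1 are uncertain, since other genes hold much of their 3′ sequence.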
